A study of Mus musculus with 4 samples.

Results

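The genes described here are Hspa5, Asns, Atf3 and Gdf15, which report on stress in the endoplasmic reticulum (ER) and on amino acid shortage. They were taken by gene symbol from the deposited tables, where each had 1 row, so that 4 of 406 named rows (4 of 373 distinct genes) are members. The study measured RNA in the mouse pancreatic β cell line NIT-1 (strain NOD/Lt), at passages 20 to 25, after transfection with 8.3 µg of plasmid and 16 µL of a liposomal reagent. Control cells received the plasmid pRP[Exp]-CMVE>EGFP, and ERRγ cells received pRP[Exp]-EGFP >ERRγ, which carries the estrogen-related receptor γ, an orphan nuclear receptor. Both groups had 2 libraries, described as biological replicates, and both received the reagent and a plasmid whose name includes EGFP. Untransfected cells were not analysed here, so stress from transfection itself was not measured, and the model is 1 cell line with an unknown share of transfected cells. In such bulk RNA, fewer cells with a transcript and less of it per cell cannot be told apart.

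Proteins enter the ER unfolded, and β cells, which make large amounts of proinsulin, depend on its chaperones. When unfolded proteins accumulate, the sensors ATF6 and IRE1 raise chaperone genes such as Hspa5, which encodes BiP, the ER member of the HSP70 family. The sensor PERK and the amino acid sensor GCN2 instead slow translation and raise the transcription factor ATF4, whose targets include Asns, for asparagine synthetase, and Atf3, for a stress-induced transcription factor. Gdf15 encodes a secreted stress cytokine and is known to be induced through ATF4 and CHOP and, separately, through p53. The ER chaperone and the ATF4-linked genes thus stand for different arms of a shared response, and the comparison asked how each differed between the plasmids.

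The promoters of 3 members carry known elements of these arms, and a stretch of each is shown to tell which gene carries which element. Sequences are from RefSeq on GRCm38.p6, read 5′ to 3′ on the strand of the gene, and all 4 members matched an entry. In the 250 bases before the RefSeq start, both strands were searched for the ER stress element (CCAAT and CCACG with 9 bases between, and CCACG alone), the C/EBP-ATF element that ATF4 binds (TGATGNAA), the cyclic AMP element (TGACGTCA) and the ERR element (TCAAGGTCA, and its core AAGGTCA, which lies inside it). Capitals mark the matched letters, N positions and the spacer left out.
Hspa5: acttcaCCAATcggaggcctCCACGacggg
Atf3: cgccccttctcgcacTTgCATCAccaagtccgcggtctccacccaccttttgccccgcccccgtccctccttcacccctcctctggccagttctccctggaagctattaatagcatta
Asns: gtcccagccacaTGATGaAActtcccgcac

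The Hspa5 stretch (chr2:34772019-34772048, plus strand) holds the ER stress element from 65 to 47 bases before the start. That element, with this exact spacing, was found in 0.113% of 32851 promoter windows, and in Hspa5 alone among the members. CCACG by itself occurred in 28.3% of the windows, inside that element in Hspa5 and from 58 to 54 bases before the start in Asns. The Atf3 stretch (chr1:191183341-191183458, minus strand) holds the C/EBP-ATF element on the opposite strand, from 110 to 103 bases before the start. The Asns stretch (chr6:7693215-7693244, minus strand) holds it from 23 to 16 bases before the RefSeq start. The annotated start of Asns-201 lies 45 bases further upstream, so the match falls in its first exon. The C/EBP-ATF element was found in 3.45% of the windows. The annotated Hspa5 and Atf3 genes begin further upstream (34771970 and 191218039). Their stretches thus lie inside the genes as annotated, before the start of the listed transcript. Neither of the 2 windows of Gdf15 held any of these motifs. The ERR element was present in 0.387% of all windows, its core in 4.08% and the cyclic AMP element in 1.55%, and none of the 3 was matched in a member window. A match describes letters in a window and not binding, and no match says only that these letters were not there.

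Each member row stood for 1 annotated transcript. The tables give reads and RPKM (a read density scaled by the length of the row and the size of the library), whose quotient gave a row length that equalled exactly 1 transcript of the gene in GENCODE M21 on GRCm38. Hspa5-202 has 2613 nucleotides in 8 exons and is 1 of 6 annotated transcripts of its gene (chromosome 2, 34771970 to 34777547, plus strand). Its coding sequence of 1965 nucleotides has the same length as that of the longer Hspa5-201. Asns-201 has 2001 nucleotides in 12 exons and is 1 of 7 transcripts (chromosome 6, 7675169 to 7693254, minus strand). Atf3-201 has 1984 nucleotides in 4 exons and is 1 of 3 (chromosome 1, 191170296 to 191218039, minus strand). Gdf15-202 has 1380 nucleotides in 3 exons and is 1 of 2 (chromosome 8, 70629393 to 70632456, minus strand). All 4 are annotated as protein-coding, and no other transcript of these genes was listed.

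Most of their reads were not unique to the row, which limits what a row says about its transcript. Uniquely placed reads were 0.011% of all reads of Hspa5-202, 0.0131% of those of Gdf15-202, 1.70% of those of Asns-201 and 4.15% of those of Atf3-201. Of the stretches of 151 nucleotides (the read length in the labels) in each transcript, 5.36%, 24.8%, 7.73% and 13.5% in the same order occur in no other GENCODE M21 transcript. In that annotation none of the remaining stretches occurred in a transcript of another gene; whether the authors' annotation and counting shared reads in the same way was not tested. For Gdf15-202 that share of own sequence, the highest of the 4, stood beside 1 unique read in all 4 libraries together. In control replicate 1, for example, 0 of 1279 Gdf15-202 reads were unique, which allows a share of up to 0.235% from counting error alone. How shared reads were divided between transcripts is not given in the sources used here, and the values below therefore describe all reads given to a row, nearly all of them not unique to it.

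Library sizes recovered from the tables ran from 16605943 to 18769899 reads, and 3 reads on a transcript of 1 kb correspond to 0.160 to 0.181 RPKM. The transfected gene separated the groups: the Esrrg rows (chromosome 1) added up to 0.232 and 0.355 RPKM in control replicates 1 and 2 and to 149 and 119 RPKM in ERRγ replicates 1 and 2. None of the 11 β cell markers, nor any of the markers of other islet, exocrine, immune or stromal cells that were looked up, had a listed row, so the cell type in the labels could not be checked here. The groups did not overlap in RPKM in 355 of 406 rows (87.4%), by a selection rule that is not stated.

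Hspa5-202, the chaperone row, was the most abundant member and was lower in both ERRγ libraries. Control replicates 1 and 2 had 458 and 436 RPKM, and ERRγ replicates 1 and 2 had 344 and 358 RPKM. The groups did not overlap, and the closest control and ERRγ libraries were 1.22-fold apart. Replicates were close, with 447 ± 15.2 RPKM (SD, n = 2) in control and 351 ± 9.71 RPKM in ERRγ. The ratio of replicate 2 to replicate 1 was 0.953 in the controls (95% counting interval 0.935 to 0.972) and 1.04 in ERRγ (1.02 to 1.06), so the replicates of each group differed by more than counting error but by less than the groups did.

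Asns-201, the row of the enzyme that makes asparagine from aspartate and glutamine, showed nearly the same picture at a lower level. It had 87.3 and 88.0 RPKM in the controls and 68.3 and 63.0 RPKM in ERRγ replicates 1 and 2. Both ERRγ libraries were below both controls, by 1.28-fold between the closest of them. The controls agreed within counting error (ratio 1.01, interval 0.959 to 1.06), and the ERRγ replicates differed slightly (0.922, 0.869 to 0.978). The group means were 87.7 ± 0.472 and 65.7 ± 3.76 RPKM (SD, n = 2).

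Atf3-201 was the member with the largest ratio between group means (control 1.88 times ERRγ) and the widest relative spread among the ERRγ libraries. The controls had 44.2 and 38.0 RPKM and ERRγ replicates 1 and 2 had 28.9 and 14.8 RPKM. Behind these values were 1645 and 1274 reads in the controls and 953 and 514 in ERRγ. ERRγ replicate 1 was 1.31-fold below the lower control, and ERRγ replicate 2 stood at 0.513 of replicate 1 (0.460 to 0.571), outside counting error. The means were 41.1 ± 4.36 and 21.9 ± 9.97 RPKM (SD, n = 2). Esrrg was the higher in ERRγ replicate 1, where Atf3 was the higher as well; with 2 libraries this is a description.

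Gdf15-202 alone among the members was higher in both ERRγ libraries, and here the controls disagreed. Its row had 49.4 and 82.0 RPKM in control replicates 1 and 2 and 96.5 and 92.1 RPKM in ERRγ replicates 1 and 2. Control replicate 2 was 1.66-fold above control replicate 1 (1.55 to 1.78), while the ERRγ replicates agreed within counting error (0.954, 0.899 to 1.01). The closest control and ERRγ libraries were 1.12-fold apart, less than the controls were from each other. The means were 65.7 ± 23.1 and 94.3 ± 3.13 RPKM (SD, n = 2).

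**Figure D1:**
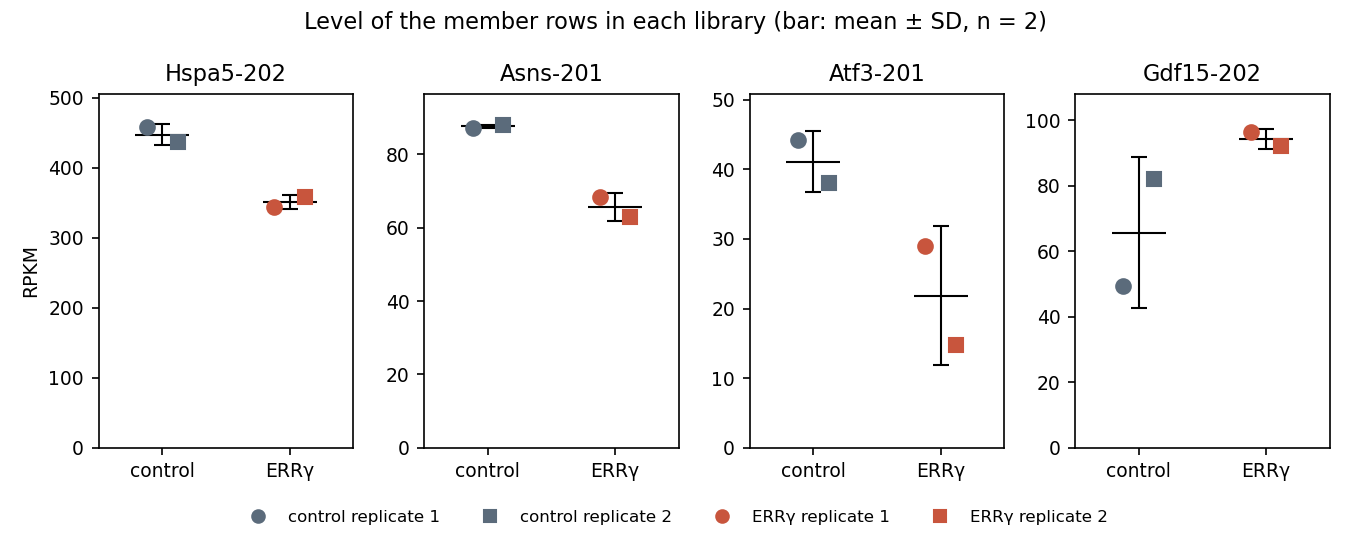
RPKM of the 4 member rows (vertical axes from 0, a different scale in each panel) in the 2 control and 2 ERRγ libraries, with mean ± SD as bars. The Hspa5, Asns and Atf3 points of ERRγ lie below both controls and those of Gdf15 above both; Atf3 spreads in ERRγ (28.9 and 14.8 RPKM) and Gdf15 in control (49.4 and 82.0 RPKM).

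The order of the RPKM levels differed between the groups. In both controls it was Hspa5, Asns, Gdf15, Atf3, and in both ERRγ libraries Hspa5, Gdf15, Asns, Atf3. In the controls the neighbours Asns and Gdf15 did not differ beyond the spread of Gdf15. In ERRγ, Gdf15 stood at 1.41 and 1.46 times Asns, against 0.565 and 0.932 times in the controls. Gdf15 and Atf3 were also near each other in control replicate 1 (1.12 times) and further apart in the other libraries (2.16, 3.34 and 6.21 times in control replicate 2 and ERRγ replicates 1 and 2).

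Ratios inside a library do not depend on how libraries are scaled, and were used to set the chaperone against the ATF4-linked members. Asns stood at 0.191 and 0.202 of Hspa5 in the controls and at 0.199 and 0.176 in ERRγ replicates 1 and 2. These groups overlapped, and the log2 ratio differed by −0.07 (ERRγ minus control; exact permutation test, two-sided, p = 0.667). Atf3 stood at 0.0965 and 0.0871 of Hspa5 in the controls and at 0.0841 and 0.0415 in ERRγ. Its groups did not overlap, but ERRγ replicate 1 was close to control replicate 2, and the log2 difference was −0.63 with an SD of 0.72 among the ERRγ libraries.

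Gdf15 stood at 0.108 and 0.188 of Hspa5 in the controls and at 0.281 and 0.258 in ERRγ. Its log2 ratio was higher by 0.92, with SDs of 0.57 in control and 0.09 in ERRγ. For Atf3 and Gdf15 the exact two-sided permutation test gave p = 0.333, the smallest value that 2 libraries against 2 can reach, so the design cannot pass 0.05. Over all 6 pairs of members, 3 of them added after seeing the data, the adjusted p was 0.4 for the 5 pairs without overlap and 0.667 for Asns to Hspa5. For every pair with Gdf15 the lack of overlap, and so the p, was fixed by the levels. Gdf15 was above both controls in both ERRγ libraries, and the other members were below both. Without ERRγ replicate 2 the log2 difference of Atf3 to Hspa5 was −0.12, that of Asns to Hspa5 turned to 0.02, and without control replicate 1 that of Gdf15 to Hspa5 was 0.52. Relative to the chaperone, the ATF4-linked members thus held 1 row that overlapped between groups (Asns), 1 below the controls (Atf3) and 1 above them (Gdf15). The share of all listed rows whose ratio to Hspa5 did not overlap was not computed. In RPKM itself 87.4% of the 406 rows did not overlap.

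**Figure D2:**
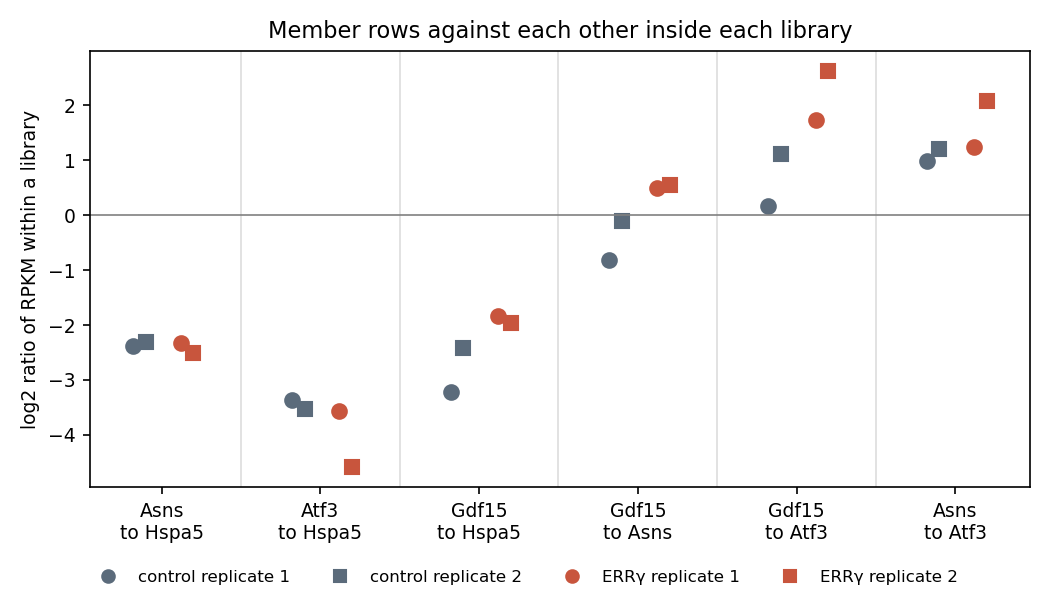
Log2 ratio of the RPKM of 2 member rows inside each library (vertical axis), for 6 pairs, with controls in grey and ERRγ in red. Asns to Hspa5 overlaps between groups around −2.4; Gdf15 to Asns is below 0 in both controls and above 0 in both ERRγ libraries.

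No member passed the test on all reads. This was edgeR's quasi-likelihood test on counts of all reads, scaled by the recovered library sizes, at a Benjamini-Hochberg adjusted p under 0.05. It called 25 of 375 rows (6.67%), 21 lower (5.6%) and 4 higher (1.07%), and all 4 members passed its filter on low counts. Hspa5-202 had a log2 fold change of −0.35 ± 0.07 (SE, edgeR, adjusted p = 0.0518). For Asns-201 it was −0.42 ± 0.11 (adjusted p = 0.0580), for Atf3-201 −0.91 ± 0.38 (adjusted p = 0.141) and for Gdf15-202 0.52 ± 0.28 (adjusted p = 0.193). Among the lower members Atf3 had the largest fold change and also the largest error and p.

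Scaling moved the members with all other rows. The median log2 fold change of all rows tested was −0.27 with library sizes, −0.10 with TMM and −0.01 with column totals, and 53.3% of the rows had a value below 0 with library sizes. Relative to that median Hspa5-202 was at −0.08, Asns-201 at −0.15, Atf3-201 at −0.64 and Gdf15-202 at 0.79. Of the rows tested, 47.2% had a lower log2 fold change than Hspa5 and 44.5% a lower one than Asns, which places both near the middle of the listed rows. The corresponding shares were 30.4% for Atf3 and 62.1% for Gdf15. The listed rows appear selected on these same libraries, so their middle does not stand for no change. A column total covers only the listed reads, 6.26% to 7.62% of a library, and TMM used the same rows. With column totals the log2 fold change of Hspa5 was −0.09 and that of Asns −0.16, each keeping its sign.

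A few settings moved a member past the threshold. Hspa5-202 was lower with a mean count of at least 50 (edgeR, adjusted p = 0.0424, where 11.0% of rows were called lower) and with all rows of a gene added up (0.0482, 8.65% called lower). Its log2 fold change stayed at −0.35 in both, and it has a single row to add up. These settings tested 328 and 347 rows, against 375 in the main test. Gdf15-202 was higher only in the DESeq2 Wald test (log2 fold change 0.72, adjusted p = 0.0130), which called 29.6% of rows higher. Over the 13 alternatives the edgeR, DESeq2 or limma adjusted p ran from 0.0424 to 0.312 for Hspa5 and from 0.0130 to 0.461 for Gdf15. Asns (0.0547 to 0.420) and Atf3 (0.0540 to 0.526) passed in none of their 13. Signs held in all 13 for each member. The Gdf15 estimate was 0.20 without control replicate 1 and 0.93 without control replicate 2, and the Atf3 estimate was −1.47 without ERRγ replicate 1 and −0.51 without ERRγ replicate 2.

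Among the members, only Asns and Atf3 had enough uniquely placed reads to pass the filter. Asns-201 had 74 and 43 unique reads in control replicates 1 and 2 and 32 and 33 in ERRγ replicates 1 and 2. Atf3-201 had 66 and 54 in the controls and 43 and 19 in ERRγ. In the same edgeR test on unique reads both fell, among 73 of 121 rows called (60.3%; 62 lower, 51.2%, and 11 higher, 9.09%), so a call there was the common case. The log2 fold change was −0.77 ± 0.32 for Asns (SE, edgeR, adjusted p = 0.0399) and −0.88 ± 0.34 for Atf3 (adjusted p = 0.0323). With TMM, which called 34.2% of rows, neither passed (edgeR, adjusted p = 0.342 and 0.293). The Asns call was also lost without control replicate 1 (log2 fold change −0.41, adjusted p = 0.235), ERRγ replicate 1 (0.293) or ERRγ replicate 2 (0.381). The Atf3 call was lost without control replicate 1 (0.122), ERRγ replicate 1 (log2 fold change −1.62, adjusted p = 0.0895) or ERRγ replicate 2 (−0.37, 0.565). Over all alternatives of the unique-read test the adjusted p ran from 0.00562 to 0.509 for Asns and from 0.0226 to 0.565 for Atf3.

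The unique reads of Asns made up 2.26% of its reads in control replicate 1 (95% Wilson interval 1.80% to 2.82%). In control replicate 2 and ERRγ replicates 1 and 2 they made up 1.45% (1.07% to 1.94%), 1.41% (1.00% to 1.98%) and 1.498% (1.07% to 2.10%). The intervals overlap, which does not show that the shares agree, and the difference was not tested. For Atf3 the shares were 4.01% and 4.24% in the controls and 4.51% and 3.70% in ERRγ. Hspa5-202 had 5, 0, 0 and 3 unique reads and Gdf15-202 had 0, 0, 1 and 0, in the same order of libraries, too few for a test. For Hspa5 and Gdf15, a change of the gene and a change in how shared reads were divided cannot be told apart.

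**Figure D3:**
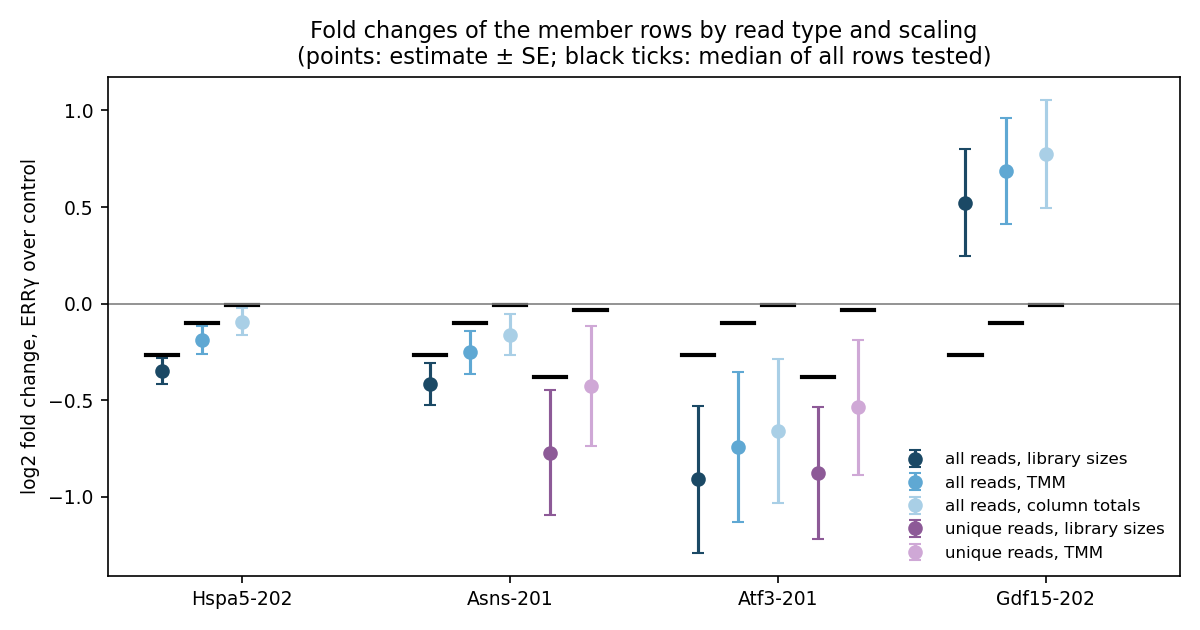
Log2 fold change of ERRγ over control (vertical axis) with its SE for the 4 member rows, by read type and library scaling, with the median of all rows tested in each setting as a black tick. Hspa5 and Asns lie near the tick of each all-read setting, Atf3 lies below it and Gdf15 above it; Hspa5 and Gdf15 have no unique-read estimate.

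The wider pathway was thinly covered. Of 28 genes on a list of ER chaperones and unfolded protein response genes, 4 had a row, and of 46 genes on a list of ATF4, amino acid supply and integrated stress response genes, 5 had one. ATF4 itself, CHOP (Ddit3), Trib3, Chac1, Psat1 and Phgdh of the ATF4 arm, and Xbp1, Dnajb9, Herpud1 and Calr of the ER arm, were among those without a row, so neither arm was measured as a whole. The groups did not overlap for any of the 9 listed rows, with 3 above and 6 below the controls, where 41.9% of all rows lay above and 45.6% below.

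Among the ER genes the nearest companion of Hspa5 is Hsp90b1, which encodes the ER chaperone GRP94. Hsp90b1-201 had 442 and 423 RPKM in the controls and 362 and 359 RPKM in ERRγ replicates 1 and 2. Both ERRγ libraries were lower, by a log2 fold change of −0.26 ± 0.06 (SE, edgeR, adjusted p = 0.0518), which is close to the median of the listed rows tested. With 22.6% of its reads unique it could be tested on those as well, where the log2 fold change was −0.21 (edgeR, adjusted p = 0.190) and turned to 0.13 with TMM. That value was −0.11 without control replicate 1, and without control replicate 2 it was −0.31 and passed (edgeR, adjusted p = 0.00914). Hyou1-206, a row of the ER co-chaperone GRP170, went the other way. It had 6.10 and 2.54 RPKM in the controls and 11.1 and 9.95 RPKM in ERRγ (edgeR, adjusted p = 0.145). It was higher in the DESeq2 test (adjusted p = 0.00447), which called 29.6% of rows higher. The filter of the main unique-read test left it out, with 7 and 2 unique reads in the controls and 10 and 10 in ERRγ. On those few reads it was higher with TMM (edgeR, adjusted p = 0.0428, where 34.2% of rows were called) and with column totals (0.0390, 45 of 120 rows called). It did not pass without a filter (edgeR, adjusted p = 0.197), and with 1 library left out its log2 fold change ran from 0.64 to 2.24. P4hb-203, a short transcript of 770 nucleotides from the gene of protein disulfide isomerase, had 5.88 and 3.46 RPKM in the controls and 0 and 1.04 RPKM in ERRγ (adjusted p = 0.236). None of the 4 ER rows passed the all-read test. Their median log2 fold change was −0.31 beside −0.27 for all rows.

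The ATF4 list added Ppp1r15a and Txnip to the members. Ppp1r15a, also known as GADD34, directs the phosphatase that restarts translation after eIF2α phosphorylation. Ppp1r15a-201 had 47.6 and 68.4 RPKM in the controls and 38.7 and 41.9 RPKM in ERRγ, and like Gdf15 it was the lower in control replicate 1. It missed the all-read test (edgeR, log2 fold change −0.53, adjusted p = 0.141; −0.24 without control replicate 2 and −0.76 without control replicate 1) and fell in the unique-read test (−0.65, adjusted p = 0.0263), a call lost with TMM (0.342) and without ERRγ replicate 1 or 2 (0.230 and 0.333). Txnip-201, an inhibitor of thioredoxin, had 162 and 147 RPKM in the controls and 243 and 220 RPKM in ERRγ. It was the 1 row of the 5 that passed the all-read test (log2 fold change 0.58 ± 0.09, SE, edgeR, adjusted p = 0.0454), with an adjusted p of 0.0588 under TMM. It missed the threshold also with any 1 library left out (0.0587 to 0.143), and passed in 4 of 13 alternatives. In the unique-read test 1 of the 4 tested rows of this list (Txnip) rose and 3 fell, where 9.09% of all rows rose and 51.2% fell. The log2 fold change of Txnip there was 0.58 (edgeR, adjusted p = 0.0203), and 0.92 with TMM (0.00381, where 34.2% of rows were called). It did not pass without a filter (0.0852), and with 1 library left out the estimate ran from 0.36 to 0.83. Whether Txnip answered to ATF4 here was not tested. The median of the 5 rows in the all-read test was −0.42, between rows that went in opposite directions.

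**Figure D4:**
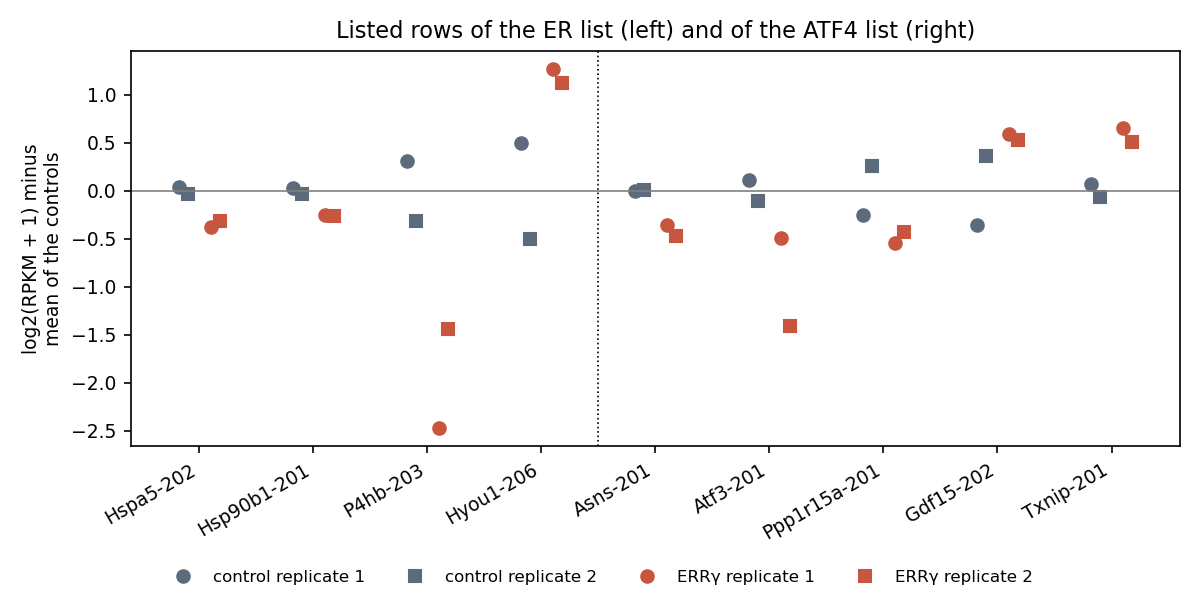
Log2(RPKM + 1) minus the mean of the controls (vertical axis) for the 9 listed rows of the ER list (left of the dotted line) and the ATF4 list (right), by library. Hyou1-206, Gdf15-202 and Txnip-201 lie above the controls in both ERRγ libraries and the other 6 rows below.

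Each member was also compared with all listed rows by pattern, as the root mean square difference of centred log2(RPKM + 1) values over the 4 libraries. This is a description over few libraries that share their scaling, and rows of heavily shared sequence can resemble each other. The closest row to Hspa5-202 was Gm15459-201 (difference 0.0077, from 764 ± 30.8 to 603 ± 19.9 RPKM, SD, n = 2). It is a processed pseudogene that aligned over its full length to Hspa8, the cytosolic HSP70 cognate, with 99.7% identity. Next were Hsp90aa1-201, a cytosolic chaperone (0.0391), and Clic4-201, an intracellular chloride channel protein (0.0482). For Asns-201 the closest was Gm8337-201 (0.0158, from 78.9 ± 0.296 to 59.5 ± 2.30 RPKM), a pseudogene aligned to Hspa8 with 95.3% identity, followed by F3-201, coagulation factor III (0.0417), and Sdc4-201, the proteoglycan syndecan-4 (0.0438). The member rows themselves aligned to no transcript of another gene in this search. It used the default mode for closely similar sequences, which can miss more distant relatives.

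The rows most like Atf3 and Gdf15 were less close. For Atf3-201 they were Galnt11-201 (0.0605), which repeated the drop from ERRγ replicate 1 to 2 (7.27 and 3.61 RPKM), Gnb1-206 (0.168) and Txnl4a-203 (0.184). For Gdf15-202 they were a row of Cdkn1a, the cell cycle inhibitor p21 (0.0978), Gpi1-207 (0.109) and Dph3-207 (0.109). The Cdkn1a row had 188 and 259 RPKM in the controls and 315 and 312 RPKM in ERRγ, so it shared with Gdf15 both the low control replicate 1 and the even ERRγ libraries. Gpi1-207 (60.3 and 89.4 RPKM) and Dph3-207 (33.1 and 46.9 RPKM) were also the lower in control replicate 1. Among the members, Hspa5 and Asns were closest to each other (0.0738), and Atf3 and Gdf15 furthest apart (0.876).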

How the data were processed

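RNA sequencing of 2 control and 2 ERRγ libraries was used, grouped by sample title. Per the file headers, each deposited table gives an RPKM value and whole-number counts of unique and total reads per row, made by the authors. The submitters' processing notes name mm8; the aligner, counting program and annotation were not given in the sources used here. Positions are from GENCODE M21 on GRCm38. Of 409 rows, 3 without a gene ID (0.0121% to 0.0332% of listed reads) were left out. A single library size per table made all 406 row lengths whole within 0.01 nucleotides.

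edgeR 4.0.16 in R 4.3.3 was fitted to all named rows, for total and for unique counts. It used the quasi-likelihood test, filterByExpr, recovered library sizes, no TMM and no replicate block. It was checked on simulated data with a dispersion (variation between replicates beyond counting error) near that of the unique-read fit (0.0138). The all-read fit had a far higher dispersion (0.534), which was not simulated, so the simulation does not cover it. The standard error (SE) was derived from the F statistic. DESeq2 1.42.0, limma 3.58.1 on log2(RPKM + 1) and log2(RPKM + 0.1), other scalings and filters, and leaving out each library were alternatives. blastn 2.17.0, in its default mode for closely similar sequences and at an e-value of 1e-20, searched GENCODE transcripts. Counting intervals cover counting error only.

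Every row of the members was named, every listed row of the 2 pathway lists, and the 3 rows most like each member. The members and lists were chosen with earlier results of these data known, and the listed rows appear selected on these same libraries, so no count is independent evidence.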

Additional observations from a re-analysis of the deposited data

How the results depend on the processing

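For the 4 members, 49 of 52 alternative all-read values kept their direction and side of the threshold and 3 passed it; of 18 unique-read values of Asns and Atf3, 4 kept their call and 14 lost it, all with the same sign. The all-read test called 25 rows; it called 3 with column totals, 202 with DESeq2, 42 with limma on log2(RPKM + 0.1), 42 with a mean count of at least 50, 1 without a filter, 1 with TMM and 1 to 2 with 1 library left out. With unique reads the number was 73 rows, and it was 45 with column totals, 33 with DESeq2, 23 without a filter, 41 with TMM and 10 to 98 with 1 library left out. The lone library of a group was then assumed to vary like the other group. With the replicate block the tests called 1 and 71 rows. The unique-read calls of Asns and Atf3 held there (edgeR, adjusted p = 0.0460 and 0.0226). The deviations of same-numbered libraries had a correlation of −0.02 across 406 rows. With 2 libraries per group and rows that appear selected, this value cannot tell whether same-numbered libraries were handled together. The unique-read log2 fold change of Hsp90b1 turned from −0.21 to 0.13 with TMM, 0.070 with column totals and 0.13 with DESeq2. With 1 library left out, the log2 ratio to Hspa5 (ERRγ minus control) ran from −0.15 to 0.019 for Asns, −1.14 to −0.12 for Atf3 and 0.52 to 1.32 for Gdf15. The cause was not tested. Ratios from unique reads could not be formed, since Hspa5 had 0 unique reads in 2 libraries, and Hspa5 has a single row, so using all its rows left these ratios as they were. Depth limits the unique reads: Asns and Atf3 had 19 to 74 per library.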
